A study of Mus musculus with 6 samples.

Results

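Nuclear factor I (NFI) proteins are DNA-binding transcription factors encoded in the mouse by 4 genes, Nfia, Nfib, Nfic and Nfix. Their transcripts were measured as rows of RNA-seq read counts carrying these 4 symbols, of 24411 genes listed, and all 4 passed the filter on low counts. The libraries came from mice at postnatal day 18, 3 whose genotype is given as a knockout of a large Atoh7 enhancer (enhancer KO) and 3 wild type (WT). Atoh7 is a proneural transcription factor gene best known for specifying ganglion cells of the retina, and the labels give neither the position of the deleted enhancer nor the zygosity, strain, sex or litter of the animals. The protocol and design text name the developing cerebellum, whereas the source and tissue fields read retina.

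NFI proteins bind DNA as homodimers or heterodimers, at a lone TTGGC element or at a palindrome, in which TTGGC is followed by any 5 bases and then by its reverse complement GCCAA. In mouse cerebellar granule neurons, the small glutamatergic neurons that make up most cells of the cerebellum, NFI proteins are known to drive genes switched on late in maturation, such as the GABA-A receptor subunit gene Gabra6. Nfia and Nfib are also known for starting astrocyte development in the embryonic spinal cord, and Nfix for controlling the timing at which neural stem cells leave proliferation.

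The enhancer KO libraries held 36849747 to 40858310 reads in genes and the WT libraries 22812075 to 33076111. Markers of cerebellar cells were abundant. The summed level of 14 mature granule neuron genes was 2170 to 2715 in enhancer KO and 3419 to 4109 in WT, in CPM (reads scaled to a common library size). That of 10 photoreceptor genes, of which Rom1 was the most abundant and Arr3 had 0 reads, was 9.86 to 14.2 CPM in enhancer KO and 8.08 to 8.76 in WT. Atoh7 itself averaged 0.766 ± 0.0835 CPM in enhancer KO and 2.04 ± 0.0945 CPM in WT (SD, n = 3 each; edgeR adjusted p = 0.000353). Of all reads, 16.8% to 18.2% lay outside annotated exons in enhancer KO and 31.1% to 34.1% in WT. WT replicate 1 alone had many Xist reads (34185, against 28 to 50 elsewhere) and 0 Ddx3y reads. Its sex therefore differs from that of the other libraries. WT replicate 2 stood apart in other ways. Rn45s took 12.9% of its gene reads, against 1.51% to 3.02% elsewhere. Of all its reads 20.4% were unmapped, against 7.79% to 8.32% elsewhere. The labels name no animal, so p-values measure the spread between these libraries, which may in part be technical.

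Transcripts of 1 NFI gene, Nfib, fell in the enhancer KO libraries, by 16.6%, and Nfia, Nfic and Nfix did not pass the test. The log2 fold changes were -0.26 for Nfib, -0.05 for Nfix, -0.04 for Nfia and -0.0063 for Nfic, of which the last 3 turned above 0 with library size alone. Their median was -0.04, against 0.0006 over all 15846 genes tested. Calls were made where edgeR's adjusted p was below 0.05. Of the genes tested, 31.3% were called, 17.9% as lower and 13.4% as higher in enhancer KO. This balance depends on the scaling: the 2844 lower genes outnumber the 2120 higher ones here, but library size alone gave 1689 lower and 2165 higher, and removing a trend over gene structure gave 2124 lower and 2920 higher. The count of 1 lower NFI gene of 4 therefore lay close to what the whole table gave. Over the 4 genes together, the level was 1234, 1216 and 1226 CPM in enhancer KO replicates 1 to 3, against 1219, 1297 and 1398 CPM in WT replicates 1 to 3.

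The Nfib gene spans 82290173 to 82705750 on the minus strand of chromosome 4 (mm10). Its level was 278, 286 and 297 CPM in the enhancer KO libraries, from 10447, 11009 and 12399 reads, against 298, 357 and 377 CPM in the WT libraries, from 9669, 7302 and 12753 reads. The groups did not overlap, but the lowest WT library, replicate 1, lay next to the highest enhancer KO library. Such separation was found for 44.8% of all genes tested in either direction and for 24.3% with enhancer KO below WT. Nfib averaged 287 ± 9.82 CPM in enhancer KO and 344 ± 41.1 CPM in WT (SD, n = 3 each), a log2 fold change of -0.26 ± 0.0792 (SE; 95% interval -0.44 to -0.08; edgeR adjusted p = 0.0345). The call was lost without enhancer KO replicate 1 or 2 or WT replicate 2 or 3 (edgeR adjusted p = 0.117, 0.0984, 0.132 and 0.0919). Of these, WT replicate 2 was the library with 20.4% unmapped reads and 12.9% Rn45s. With WT replicate 1 as the lone WT library, its spread taken from the enhancer KO group, Nfib stood at -0.03 (edgeR adjusted p = 0.745). Without WT replicate 1 Nfib stood at -0.35 (edgeR adjusted p = 0.000121), and with Xist reads as a covariate at -0.36 (8.1e-05). As WT replicate 1 alone had many Xist reads, the covariate nearly singles out that library. The covariate is therefore not independent of leaving that library out. WT replicate 1 also had the highest summed level of 10 midbrain neuron genes among the WT libraries. The sum was 51.7 CPM, against 36.8 and 40.0 in the other WT libraries and 45.0 to 58.1 in enhancer KO. Th was the most abundant of these genes, and the sum does not show how much midbrain tissue a library held. The part of midbrain tissue in the Nfib result was not tested.

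Nfia, which initiates the gliogenic programme in the mouse and chick spinal cord, lies on the same chromosome at 97772734 to 98118874, on the plus strand. It had 270, 278 and 267 CPM in the enhancer KO libraries, against 259, 279 and 300 CPM in the WT libraries. The WT libraries lay on either side of all enhancer KO libraries. The means were 272 ± 5.57 CPM in enhancer KO and 279 ± 20.5 CPM in WT (SD, n = 3 each), with a log2 fold change of -0.04 (95% interval -0.15 to 0.08; edgeR adjusted p = 0.628), and the sign turned without WT replicate 3 (0.02).

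Nfix lies on chromosome 8 at 84699876 to 84800344, on the minus strand, and loss of this gene is known to delay granule neuron development in mice. Its level was 418, 395 and 407 CPM in the enhancer KO libraries, against 395, 409 and 458 CPM in the WT libraries. WT replicate 3 was the highest of the 6, and the other WT libraries fell among the enhancer KO values. The means were 407 ± 11.7 CPM in enhancer KO and 421 ± 33.3 CPM in WT (SD, n = 3 each), and the log2 fold change of -0.05 (95% interval -0.17 to 0.07; edgeR adjusted p = 0.556) was 0.02 without WT replicate 3.

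Nfic, known in mice for its part in tooth root formation, lies on chromosome 10 at 81396186 to 81455635, on the minus strand, 18.3 Mb from Atoh7. Its level was 267, 257 and 254 CPM in the enhancer KO libraries, against 267, 252 and 262 CPM in the WT libraries. These ranges nearly coincided. The means were 260 ± 6.79 CPM in enhancer KO and 261 ± 7.64 CPM in WT (SD, n = 3 each). The log2 fold change was -0.0063 with a 95% interval of -0.10 to 0.08 (edgeR adjusted p = 0.926), and its sign turned with RLE scaling (0.0013), with library size alone (0.06) and without enhancer KO replicate 2 or 3 or WT replicate 1 (0.0019, 0.0096 and 0.01). For Nfia, Nfic and Nfix a p above the threshold does not show that the groups are alike. In this fit the 95% intervals reached down to falls of 0.15, 0.10 and 0.17 on the log2 scale. The estimates moved with the setting, to -0.094 for Nfia and -0.096 for Nfix with Xist reads as a covariate, so these are not firm limits.

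**Figure D1:**
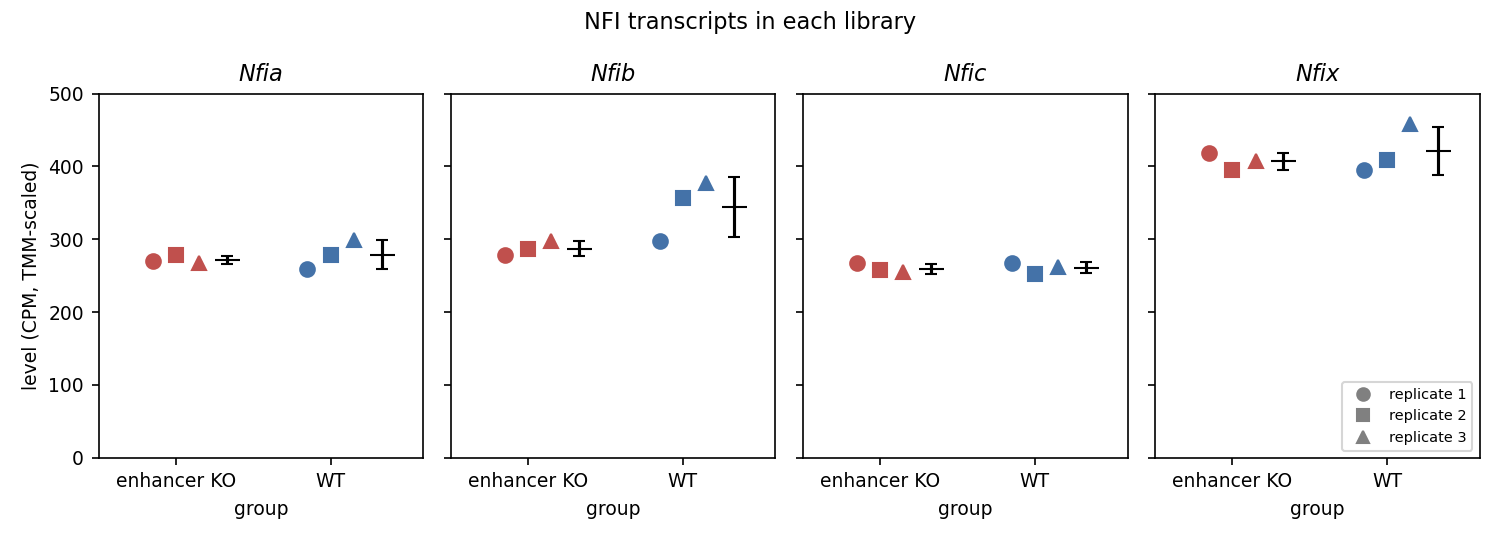
Levels of the 4 NFI genes (vertical axis, CPM on TMM-scaled library sizes) in each enhancer KO and WT library, with the mean and SD of each group (n = 3) in black. Nfib is at 278 to 297 CPM in enhancer KO and 298 to 377 CPM in WT, while for Nfia, Nfic and Nfix the groups overlap.

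Nfia, Nfib and Nfix varied less among the enhancer KO libraries than among the WT libraries, while the SDs of Nfic were close (6.79 and 7.64 CPM). How often this holds over all genes was not counted, so it is not a trait of this family. Within WT, replicate 1 differs in sex and replicate 2 had 20.4% unmapped reads. The SD of Nfib was 9.82 CPM in enhancer KO and 41.1 CPM in WT, and WT replicate 1 was the lowest WT library for Nfia, Nfib and Nfix and the highest for Nfic. Across the 6 libraries the log2 levels of Nfia had a Pearson correlation of 0.81 with Nfix and 0.74 with Nfib, and those of Nfib and Nfix of 0.68, while Nfic had -0.20, -0.30 and 0.17 with Nfia, Nfib and Nfix. These describe 6 libraries that share their scaling.

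Levels were set beside each other per length, dividing CPM by the length of all annotated exons of a gene, 10891 bases for Nfia, 14957 for Nfib, 6630 for Nfic and 7351 for Nfix. Where a long annotated exon is unused in this tissue, the level per kb is understated. In 6 of 6 libraries the order was Nfix, Nfic, Nfia, Nfib from high to low. Nfix had 55.3 ± 1.59 CPM per kb in enhancer KO and 57.2 ± 4.54 CPM per kb in WT, and Nfic had 39.2 ± 1.03 in enhancer KO and 39.3 ± 1.15 in WT (SD, n = 3 each). Nfia had 24.95 ± 0.512 CPM per kb in enhancer KO and 25.6 ± 1.88 in WT, and Nfib had 19.2 ± 0.657 in enhancer KO and 23.0 ± 2.75 in WT. Among WT libraries the ranges of the neighbours Nfia (23.7 to 27.5 CPM per kb) and Nfib (19.9 to 25.2 CPM per kb) overlapped, and among enhancer KO libraries they did not. The share of Nfib in the summed NFI level per length was 13.2% to 14.4% in enhancer KO and 14.5% to 16.7% in WT.

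Ratios of NFI genes within a library, which do not depend on the scaling between libraries, were compared for all 6 pairs. The log2 ratio of Nfib reads to Nfix reads was -0.59, -0.46 and -0.45 in the enhancer KO libraries, against -0.41, -0.20 and -0.28 in the WT libraries. The groups did not overlap, and the difference was -0.21 (exact two-sided permutation p = 0.1, the smallest that 3 against 3 allows; 0.3 adjusted over the 6 pairs). The log2 ratio of Nfia to Nfib reads was -0.08 ± 0.0659 in enhancer KO and -0.30 ± 0.0809 in WT (SD, n = 3 each), which also did not overlap (exact permutation p = 0.1, 0.3 adjusted). The ratio of Nfib to Nfic differed by -0.25 on the log2 scale with overlapping groups (exact permutation p = 0.2, 0.4 adjusted). The 3 pairs without Nfib differed by 0.01 for Nfia to Nfix, -0.03 for Nfia to Nfic and 0.04 for Nfic to Nfix. No pair could pass the threshold in this design. The pairs with Nfib use its reads again, so they are not independent of the Nfib result above. How often ratios of other genes separate the groups was not counted.

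The 4 genes differ in structure. The introns of Nfib total 401 kb and those of Nfia 335 kb, against 93.1 kb for Nfix and 52.8 kb for Nfic, and transcript GC content is 43.3% and 42.7% for the long-intron genes, against 57.1% and 57.4% for Nfix and Nfic. Reads outside exons were fewer in the enhancer KO libraries (17.4% ± 0.734, against 32.4% ± 1.56 in WT; SD, n = 3 each). A list of 10 nuclear long non-coding RNAs, of which 9 were lower, against 17.9% of all genes tested, had a sum of 6006 to 7399 CPM in enhancer KO and 15630 to 18110 CPM in WT. The list holds Xist, with 34185 reads in WT replicate 1. Its sum was 18110 CPM in that library, against 16330 and 15630 CPM in WT replicates 2 and 3. With the trend of each library over intron length, exon length and GC content removed, Nfib had a log2 fold change of -0.15 and did not pass (edgeR adjusted p = 0.267), Nfia was at 0.02, Nfix at 0.05 and Nfic at 0.09. Library size alone, a scaling that moved the median of all genes to 0.06, gave Nfib -0.195 (edgeR adjusted p = 0.0834) and values above 0 for the other 3 genes.

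**Figure D2:**
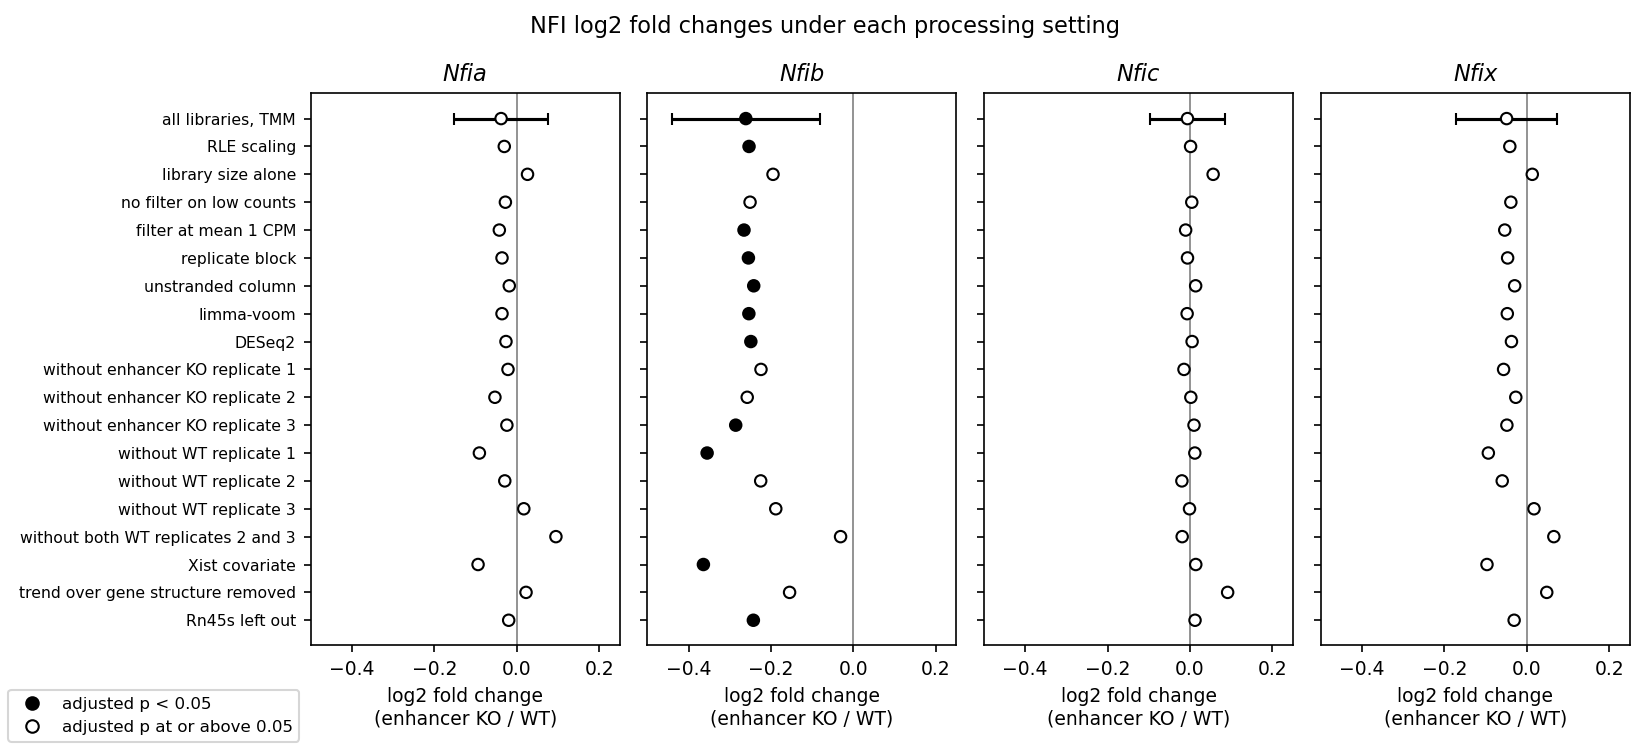
Log2 fold change (enhancer KO over WT) of each NFI gene under each processing setting (rows), filled where the adjusted p is under 0.05; the bar on the top row is its 95% interval. Nfib lies below 0 in all 19 rows, between -0.36 and -0.03, and Nfia, Nfic and Nfix lie on either side of 0 with no filled point.

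Genes next to the NFI loci were listed to 500 kb on either side, and their counts are read against the 13.4% higher and 17.9% lower of all genes tested. E130114P18Rik, which overlaps the start of Nfia on the opposite strand, had 8.18 ± 0.720 CPM in enhancer KO and 7.49 ± 0.870 CPM in WT (SD, n = 3 each) and did not pass (edgeR adjusted p = 0.397). Of the neighbours tested, 1 of 3 around Nfia and 1 of 2 around Nfib rose and none fell. These were Tm2d1 near Nfia (log2 fold change 0.24, edgeR adjusted p = 0.0397) and the palmitoyltransferase gene Zdhhc21 near Nfib (0.16, edgeR adjusted p = 0.0278). Tm2d1 lost its call when any enhancer KO replicate, WT replicate 1 or WT replicate 2 was left out (edgeR adjusted p of 0.0581 to 0.127), and Zdhhc21 without enhancer KO replicate 2 or 3 or WT replicate 1 or 3 (0.0591, 0.0656, 0.0704 and 0.0945). With so few neighbours these counts say nothing particular to either locus. Around Nfic, 8 rose and 7 fell of 43 tested, shares near those of all genes. The nearest of these were the RNA-binding protein gene Celf5, 3.59 kb away, which fell by 0.31 on the log2 scale, and Dohh, 7.83 kb away, which rose by 0.23. Celf5 did not pass with library size alone (edgeR adjusted p = 0.0654). Tle2, a Groucho-family corepressor gene 119 kb away, averaged 10.9 ± 1.56 CPM in enhancer KO and 26.7 ± 1.15 CPM in WT (SD, n = 3 each; edgeR adjusted p = 3.54e-06). Around Nfix, 3 rose and 6 fell of 35 tested, again near the shares of all genes. Lyl1, which lies within the Nfix span on the opposite strand, had 2.42 ± 0.395 CPM in enhancer KO and 2.71 ± 0.397 CPM in WT (SD, n = 3 each) and did not pass (edgeR adjusted p = 0.513). The tRNA methyltransferase gene Trmt1, 0.068 kb away, was called lower (log2 fold change -0.18, edgeR adjusted p = 0.0470). That call was lost with RLE scaling and with library size alone (edgeR adjusted p = 0.0586 and 0.366) and without enhancer KO replicate 1 or 2 or WT replicate 1 or 3 (0.138, 0.169, 0.156 and 0.0849). Farther away, at 59.6 kb, lies Cacna1a, the gene of a calcium channel abundant in Purkinje and granule cells, which fell to 346 ± 20.5 CPM in enhancer KO, against 422 ± 6.84 CPM in WT (SD, n = 3 each; edgeR adjusted p = 0.00103).

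Genes known as NFI targets in mouse granule neurons were lower in part. Of 7 such genes, 4 fell, 0 rose and 3 did not pass, with a median log2 fold change of -0.23, against 17.9% lower and a median of 0.0006 over all genes tested. The 4 that fell were Gabra6, Grin2c, Cntn2 and Wnt7a. To show what the start regions of these genes hold, the 250 bases before the start are given below from the RefSeq promoter table of GRCm38.p6, 5′ to 3′, with TTGGC on either strand (GCCAA where it lies on the other strand) in capitals. Itsn1, a target whose transcripts did not pass the test, is shown beside them.
Gabra6 (chr11:42321073-42321322, minus strand): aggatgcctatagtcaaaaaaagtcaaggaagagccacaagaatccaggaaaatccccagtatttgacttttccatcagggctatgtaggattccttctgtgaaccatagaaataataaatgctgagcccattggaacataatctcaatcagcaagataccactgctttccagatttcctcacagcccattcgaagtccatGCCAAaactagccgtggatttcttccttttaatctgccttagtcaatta
Cntn2 (chr1:132542941-132543190, minus strand): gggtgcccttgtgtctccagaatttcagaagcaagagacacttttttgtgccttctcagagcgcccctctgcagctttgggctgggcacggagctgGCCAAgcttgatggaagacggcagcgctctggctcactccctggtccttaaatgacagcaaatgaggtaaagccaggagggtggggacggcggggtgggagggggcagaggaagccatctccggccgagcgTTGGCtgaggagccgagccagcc
Grin2c (chr11:115267244-115267493, minus strand): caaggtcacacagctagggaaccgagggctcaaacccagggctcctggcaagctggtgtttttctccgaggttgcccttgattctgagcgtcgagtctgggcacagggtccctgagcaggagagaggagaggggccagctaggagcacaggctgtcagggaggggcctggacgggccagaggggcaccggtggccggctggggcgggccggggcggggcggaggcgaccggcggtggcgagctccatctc
Wnt7a (chr6:91411354-91411603, minus strand): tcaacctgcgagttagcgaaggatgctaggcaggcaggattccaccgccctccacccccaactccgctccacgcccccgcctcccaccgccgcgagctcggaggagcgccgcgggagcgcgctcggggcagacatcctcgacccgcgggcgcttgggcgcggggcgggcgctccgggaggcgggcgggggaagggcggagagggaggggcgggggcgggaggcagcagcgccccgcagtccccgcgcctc
Itsn1 (chr16:91729121-91729370, plus strand): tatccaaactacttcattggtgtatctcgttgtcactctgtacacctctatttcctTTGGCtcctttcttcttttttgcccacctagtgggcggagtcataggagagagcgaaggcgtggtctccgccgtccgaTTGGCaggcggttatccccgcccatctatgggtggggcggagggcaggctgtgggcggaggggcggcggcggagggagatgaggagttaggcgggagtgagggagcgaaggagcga
The element occurs once before the start of Gabra6, at 49 to 45 bases upstream, and at 2 places before the start of Cntn2 and at 2 before that of Itsn1. It is part of the longer match TTGGCA in Gabra6, which fell (50 to 45 bases), and in Itsn1, which did not pass (116 to 111 bases). TTGGC does not occur in these windows of Grin2c and Wnt7a. TTGGC, searched on both strands of windows of 250 bases before to 50 after each start, was present in 46.7% of all 32851 windows and TTGGCA, which contains it, in 14.1%. Of the 6 granule neuron targets matched to a promoter, 4 held TTGGC, among them Efnb1, which did not pass the test, and 2 held TTGGCA. The palindrome was present in 0.0365% of all windows and in none of those of these 6 targets. Among NFI genes, Nfia, Nfic and Nfix were matched, with 1, 1 and 4 starts. TTGGC was found at 3 of the Nfix starts and not at the start of Nfic or Nfia, and neither TTGGCA nor the palindrome was found at any. The RefSeq start of Nfia lies outside the gene span given above, and those of Nfic and Nfix lie inside theirs, so the 5′ ends of these spans were not searched. Nfib and Cdh2 were not matched. A match is a description of letters, and no binding was measured.

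Gabra6, the subunit that marks mature granule neurons, had 141, 137 and 199 CPM in the enhancer KO libraries, against 260, 396 and 304 CPM in the WT libraries. The groups did not overlap, and the log2 difference of -1.004 ± 0.243 (SE) passed the test (edgeR adjusted p = 0.0414). Leaving out any library other than enhancer KO replicate 3 ended this call (edgeR adjusted p from 0.0583 to 0.129). Grin2c, the NMDA receptor subunit gene that granule neurons switch on as they mature, had 68.2, 62.0 and 84.0 CPM in enhancer KO, against 110, 128 and 133 CPM in WT (log2 fold change -0.79 ± 0.132, SE; edgeR adjusted p = 0.00722). Cntn2, an axonal adhesion gene of young granule neurons, had 237, 222 and 237 CPM in enhancer KO, against 303, 316 and 331 CPM in WT (log2 fold change -0.45 ± 0.0470, SE; edgeR adjusted p = 3.45e-05). It passed in all alternatives run. Wnt7a, a secreted Wnt that granule cells send to mossy fibres, averaged 27.5 ± 2.87 CPM in enhancer KO and 32.3 ± 2.15 CPM in WT (SD, n = 3 each; edgeR adjusted p = 0.0478). Its call was lost with RLE scaling and with library size alone (edgeR adjusted p = 0.0609 and 0.183) and without enhancer KO replicate 1 or 2 or WT replicate 2 or 3 (0.135, 0.187, 0.197 and 0.0977). Without both WT replicates 2 and 3, 1 of the 7 targets was lower. The N-cadherin gene Cdh2 had 122 ± 2.003 CPM in enhancer KO and 119 ± 5.02 CPM in WT, and the scaffold gene Itsn1 had 250 ± 5.71 CPM in enhancer KO and 258 ± 13.7 CPM in WT (SD, n = 3 each). The ephrin gene Efnb1 had 10.7 ± 1.66 CPM in enhancer KO and 11.2 ± 2.20 CPM in WT, and none of these 3 passed.

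Regulators that act beside NFI in granule neuron maturation moved in both directions. Of 26 genes, 9 fell, 5 rose and 12 did not pass, with a median log2 fold change of -0.12, where the whole table gave 17.9% lower and 13.4% higher. Etv1, an ETS factor that works with NFI on late granule neuron genes in mice, had 99.5, 96.0 and 117 CPM in enhancer KO, against 136, 178 and 152 CPM in WT. The groups did not overlap, and the log2 difference of -0.57 ± 0.118 (SE) passed the test (edgeR adjusted p = 0.0134). The call ended without enhancer KO replicate 1 (0.0603). The chromatin remodeller gene Chd7 fell to 130 ± 4.37 CPM in enhancer KO, against 217 ± 20.9 CPM in WT (SD, n = 3 each; edgeR adjusted p = 2.6e-05). The zinc finger genes Zic1 and Zic2 fell by 0.52 and 0.55 on the log2 scale, the homeobox gene Meis1 by 0.38 and Barhl2 by 0.37. Barhl2 lost its call without enhancer KO replicate 1 or 2 or WT replicate 3 (edgeR adjusted p = 0.0656, 0.0527 and 0.0612). Without both WT replicates 2 and 3, 5 of the regulators were lower and 3 higher.

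The calcineurin-NFAT arm, through which depolarization delays NFI binding in young mouse granule neurons, was measured by 7 genes of this list. The calcineurin regulatory subunit gene Ppp3r1 rose to 395 ± 7.55 CPM in enhancer KO, against 313 ± 19.6 CPM in WT, and the catalytic subunit gene Ppp3cb to 210 ± 12.2 CPM, against 183 ± 4.52 CPM in WT (SD, n = 3 each; edgeR adjusted p = 0.000458 and 0.00632). Ppp3ca and the NFAT genes Nfatc1, Nfatc2, Nfatc3 and Nfatc4 did not pass, with log2 fold changes between -0.15 and 0.02. Ntrk2, the receptor gene of the neurotrophin BDNF, rose by 0.26, Mef2c by 0.41 and Meis2 by 0.38 on the log2 scale. Mef2c lost its call without enhancer KO replicate 1 or 3 or WT replicate 2 (edgeR adjusted p = 0.0558, 0.0509 and 0.0924), as did Meis2 when any enhancer KO replicate, WT replicate 2 or WT replicate 3 was left out (0.0535 to 0.119).

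Genes tied to NFI in astroglia and neural stem cells rose in part. Of 14, 5 rose, 0 fell and 9 did not pass, with a median log2 fold change of 0.16, against 13.4% higher and 17.9% lower of all genes tested. The list mixes genes that NFI proteins activate with genes that they repress, so its count and median have no single predicted direction. Zcchc24 and Mmd2, which NFIA and SOX9 switch on together in the embryonic spinal cord of the mouse, had 197 ± 7.58 and 192 ± 3.76 CPM in enhancer KO, against 162 ± 2.18 and 163 ± 1.18 CPM in WT (SD, n = 3 each; edgeR adjusted p = 0.000393 and 0.000726). For both genes every enhancer KO library lay above every WT library. Apcdd1, of the same list, had 40.4 ± 1.26 CPM in enhancer KO and 43.2 ± 3.53 CPM in WT (SD, n = 3 each). Its log2 fold change of -0.10 did not pass (edgeR adjusted p = 0.247). The astroglial calcium-binding protein gene S100b rose by 0.23, the transcription factor gene Sox9 by 0.17 and the Notch effector gene Hes5 by 0.46 on the log2 scale. Sox9 lost its call without enhancer KO replicate 2 (edgeR adjusted p = 0.0561) and Hes5 without enhancer KO replicate 1 or 2 or WT replicate 2 or 3 (0.0847, 0.0965, 0.0806 and 0.136). Gfap, an NFI target in astrocytes, had 718, 772 and 484 CPM in enhancer KO, against 528, 497 and 540 CPM in WT, so that enhancer KO replicate 3 lay below all WT libraries, and it did not pass (edgeR adjusted p = 0.265). Ezh2, which NFIB represses in the mouse cortex, had 17.8 ± 0.969 CPM in enhancer KO and 18.3 ± 1.72 CPM in WT (SD, n = 3 each) and did not pass (edgeR adjusted p = 0.755).

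**Figure D3:**
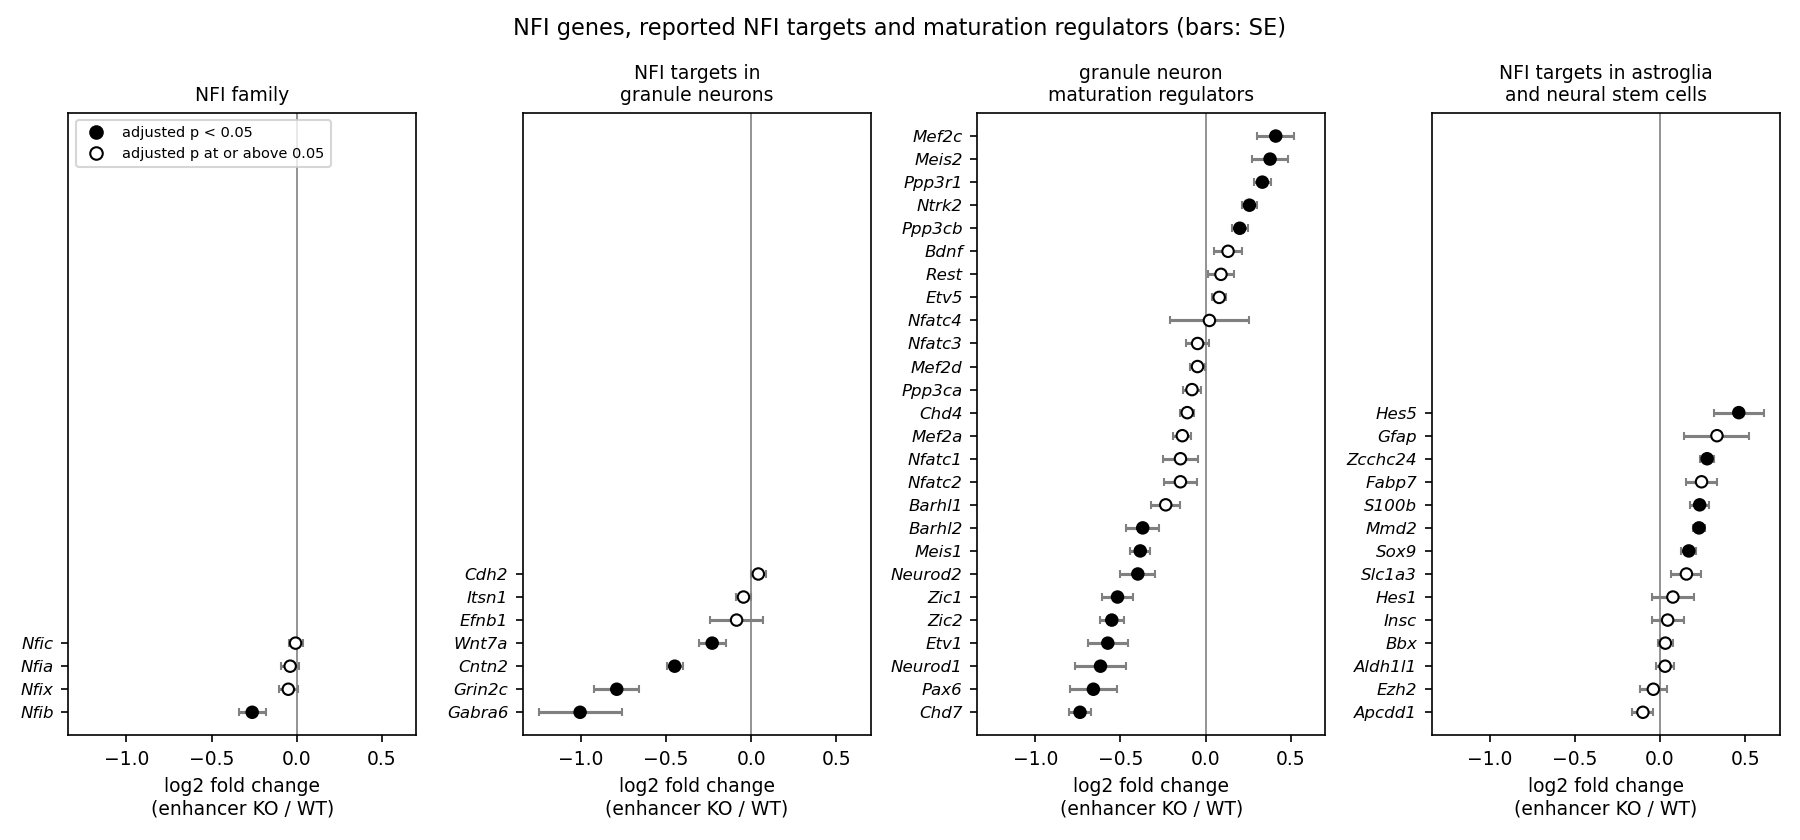
Log2 fold change (enhancer KO over WT; bars, SE) of the 4 NFI genes, 7 granule neuron targets, 26 maturation regulators and 14 astroglial and stem cell genes, filled where the edgeR adjusted p is under 0.05. Filled points lie below 0 for 1, 4, 9 and 0 genes and above 0 for 0, 0, 5 and 5 genes.

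Markers of several cerebellar cell types, but not of all, differed between the groups too, and their counts are set against 17.9% lower and 13.4% higher over the whole table. Which of these cells use NFI was not measured. Mature granule neuron genes fell in 13 of 14 cases (median log2 fold change -0.64), with no overlap in their sum, given above. Genes of granule cell precursors and immature granule neurons had a sum of 670 to 678 CPM in enhancer KO and 769 to 862 CPM in WT, with 3 of 11 lower, which is not far from the share over all genes. Bergmann glia and astrocyte genes had 8080 to 8517 CPM in enhancer KO and 6918 to 7044 CPM in WT, with 5 of 12 higher and 0 lower. Purkinje genes had 8981 to 9396 CPM in enhancer KO and 6553 to 7735 CPM in WT, with 9 of 12 higher. Molecular layer interneuron and Golgi cell genes had 1097 to 1165 CPM in enhancer KO and 945 to 992 CPM in WT. Of these, 6 of 10 were higher and 1 lower, and the list shares Gad1 with the Purkinje list. Microglial genes were higher in 5 of 10 cases, and endothelial and mural genes were lower in 5 of 10. Of oligodendrocyte lineage genes 1 of 10 was higher and 2 were lower. Of unipolar brush cell genes 1 of 5 was higher, and of ependymal and choroid plexus genes 1 of 8. The summed levels of the oligodendrocyte, unipolar brush cell and ependymal lists overlapped between the groups. In bulk tissue fewer cells of a type and less RNA per cell cannot be told apart. WT replicates 2 and 3, with 4109 and 3972 CPM on the mature granule list, also had the most Nfib, and WT replicate 1, with 3419 CPM, had the least of the WT libraries. The Nfib fall of 0.26 was smaller than the list median. The mature granule list also holds Gabra6, Grin2c, Etv1, Neurod1, Zic1 and Zic2, the precursor list Cntn2 and Barhl1, and the glial list Gfap, S100b, Sox9, Fabp7, Slc1a3 and Aldh1l1, so these lists are not independent of those above. The part of these markers in the results on Nfib and on the NFI targets was not tested.

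**Figure D4:**
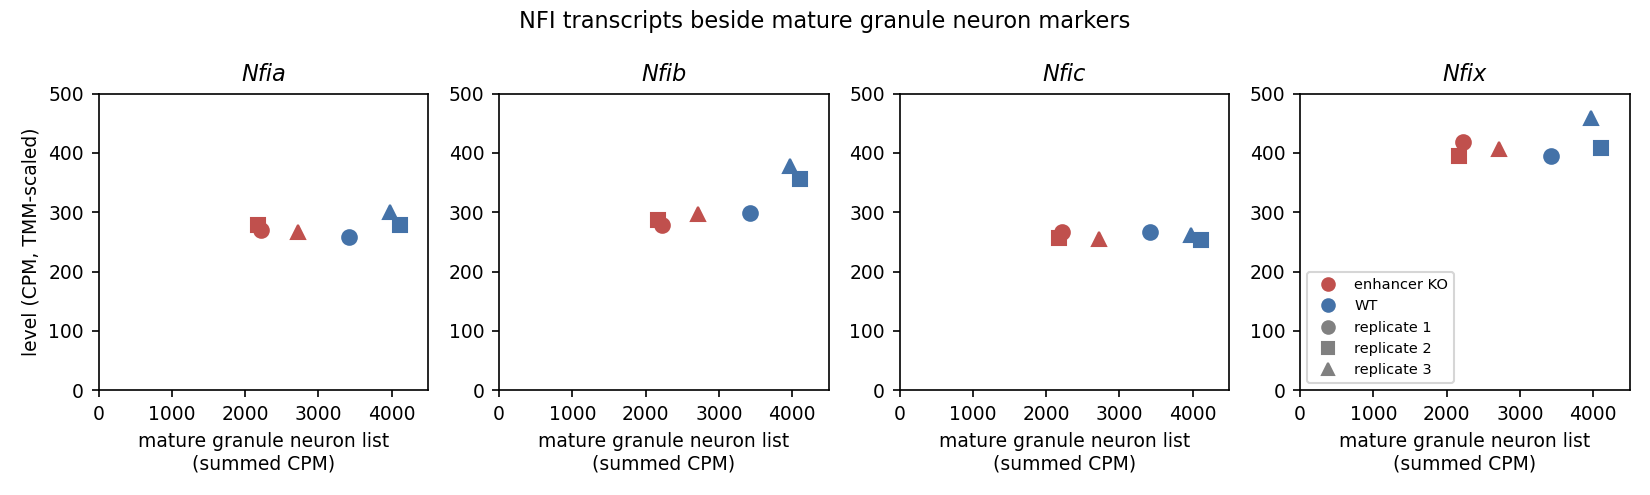
Level of each NFI gene (vertical axis, CPM) against the summed level of 14 mature granule neuron genes (horizontal axis, CPM) in each library. WT replicates 2 and 3 are highest on both axes for Nfib, while Nfic stays between 252 and 267 CPM across list sums of 2170 to 4109 CPM.

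The genes most like each NFI gene over the 6 libraries were taken from 10309 others with a mean of at least 10 CPM, by Pearson correlation of log2 CPM. For Nfia they were Tob1, Pxmp4 and Mybpc1 (0.99, 0.99 and 0.97), and for Nfib Sox12, Mtmr14 and Ubtf (0.99 each). Sox12, an SRY-box factor gene, had 31.6, 32.4 and 33.1 CPM in enhancer KO, against 32.9, 35.4 and 36.6 CPM in WT, with WT replicate 1 lowest of the WT libraries as for Nfib. Ubtf, the RNA polymerase I factor gene, was called lower (log2 fold change -0.17, edgeR adjusted p = 0.0357) but not without any 1 library other than WT replicate 1 (0.0656 to 0.160). Mtmr14 was called lower without WT replicate 1 (edgeR adjusted p = 0.0267, against 0.0955 with all libraries). For Nfic they were Nrp2, Srebf2 and Ipo4 (0.99, 0.99 and 0.98), and for Nfix Zic5, Ctsf and Ube3b (0.98, 0.97 and 0.96). With 6 libraries and so many candidates, values this high describe the libraries only.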

How the data were processed

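The data were 3 enhancer KO and 3 WT RNA-seq libraries from mice at postnatal day 18. The submitters' processing notes name Trimmomatic, STAR and mm10, with no roles; their versions, the annotation and the settings are not stated there. The values the authors deposited are raw whole-number read counts per gene, and the fourth column, which counts 1 strand, was used, since the other strand held 1.62% to 1.88% of stranded gene reads. The 4 leading rows that name no gene were kept out; reads outside exons made up 16.8% to 34.1% of all reads. Genes were kept by filterByExpr (15846 tested), scaled by TMM and compared by the quasi-likelihood test of edgeR 4.0.16 in R 4.3.3 (robust, two-sided) with p-values adjusted by Benjamini-Hochberg over the whole table and a threshold of 0.05. Levels are CPM on TMM-scaled library sizes and fold changes are enhancer KO over WT. Log2 levels for correlations used a prior count of 2 and log2 ratios one of 0.5.

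Positions and lengths came from GENCODE M21 (408 of 24411 symbols had no unique match), promoter sequences from RefSeq (GRCm38.p6). The members and lists were chosen with earlier results of these data known. Named were the NFI genes, Atoh7, up to 6 members of each list and direction by smallest p, neighbours within 500 kb (the nearest called gene at each locus, overlapping genes tested and a few others in the text, the rest as counts), the 3 genes most alike, and unchanged list members given for contrast, named after their values were seen. Every pair of libraries differed by more than sampling noise. The tests were checked on simulated counts, a check that set no requirement for changes as small as that of Nfib. The alternatives tried were scaling by RLE or by library size alone, other filters, replicate block, the unstranded column, limma-voom (3.58.1), DESeq2 (1.42.0), leaving out libraries, an Xist covariate, removal of a trend over gene structure (mgcv 1.9.3) and omission of Rn45s.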

Additional observations from a re-analysis of the deposited data

How the results depend on the processing

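Nfib kept its direction under all 18 alternatives and lost its call in 8. It was at -0.195 with library size alone, -0.25 without a filter on low counts, -0.031 without both WT replicates 2 and 3, and -0.15 after removing the trend over gene structure, and the number of lower NFI genes was then 0. The cause was not tested. Leaving out 1 library gave -0.35 to -0.19 and 0 to 1 lower NFI genes. No NFI gene was called higher in any alternative, and Nfia, Nfic and Nfix were not called in any. Their signs turned with library size alone (0.026, 0.056 and 0.0135) and with the trend removed (0.023, 0.091 and 0.049), and Nfia and Nfix also without both WT replicates 2 and 3 (0.095 and 0.066). Nfic turned with RLE scaling (0.0013), no filter (0.0042), the unstranded column (0.0136), DESeq2 (0.0050), the Xist covariate (0.0139) and Rn45s left out (0.0121). Leaving out 1 library gave Nfia -0.091 to 0.017, Nfic -0.020 to 0.012 and Nfix -0.093 to 0.018. The ratio differences then ran from -0.027 to 0.035 for Nfia to Nfix, -0.10 to 0.018 for Nfia to Nfic and -0.018 to 0.10 for Nfic to Nfix.

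Lower granule neuron targets were 2 with the replicate block, 1 without both WT replicates 2 and 3 and 2 to 4 leaving out 1 library, and 1 was higher with the trend removed. Regulators without both WT replicates were 3 higher and 5 lower, and leaving out 1 library gave 3 to 5 higher and 5 to 11 lower. Astroglial and stem cell genes were 3 to 6 higher leaving out 1 library. Of all genes, 1689 were lower with library size alone, against 2844, so that lower genes were fewer than the 2165 higher, 2124 lower and 2920 higher with the trend removed, and 1640 lower without both WT replicates. Same-numbered libraries did not deviate together (correlations 0.0526, -0.0386 and -0.0795), and the main test treated the samples as unpaired. With so few libraries this check cannot exclude a shared litter or preparation, which the labels do not give. With the replicate block Nfib was at -0.25 (edgeR adjusted p = 0.00815), and Nfia, Nfic and Nfix at -0.036, -0.0062 and -0.046.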
